A study of Bos taurus with 252 samples.

Results

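Mitochondrial DNA (mtDNA) is the small circular chromosome inside mitochondria, and it encodes core subunits of the respiratory chain. Of its protein-coding genes, 10 were followed here through the blood of 42 steers. They were chosen by their symbols in the count table. The rule used no measured value, but earlier results of these data were known when it was made. They are ND1, ND2, ND4, ND5 and ND6 of complex I, CYTB of complex III, COX1, COX2 and COX3 of complex IV, and ATP6 of the ATP synthase (complex V). These 10 genes stand among 33282 genes listed in the table, of which 19056 passed the filter on low counts, and all 10 passed it. The table holds 28 further mtDNA-derived entries, namely ND3, ND4L, ATP8, ribosomal RNAs, transfer RNAs and a row called KEH36_p09.

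The samples were whole blood from healthy crossbred beef steers, with 6 steers in each of 7 groups and a library from each steer on each of 6 days. The negative control steers (NC) received no antimicrobial drug. The others received a single injection on day 0, given after the day 0 blood had been drawn. The drugs were the macrolides tulathromycin (TULA) and tildipirosin (TILD), the phenicol florfenicol (FLOR), the tetracycline oxytetracycline (OXYT), the fluoroquinolone enrofloxacin (ENRO) and the cephalosporin ceftiofur (CEFT). Later samples came from day 3, day 7, day 14, day 21 and day 56. All groups, NC included, had been given tildipirosin, a hormone implant, vaccines and dewormers at an earlier yard before arrival, so no group was free of a previous macrolide. Each treatment occupied 1 pen, the pens were sampled in the fixed order NC, ENRO, FLOR, TULA, TILD, CEFT and OXYT, and untreated pen mates, not sequenced, shared the drug pens. Drug, pen and place in the sampling order therefore cannot be told apart. Each steer was sequenced on 1 of 3 lanes, with NC and ENRO on lane 1, TULA on lane 2 and CEFT and OXYT on lane 3. The FLOR steers were split between lane 1 (2 steers) and lane 2 (4 steers), and the TILD steers between lane 2 (4 steers) and lane 3 (2 steers).

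Mitochondria translate their mRNAs on ribosomes of their own, which descend from bacterial ribosomes. Florfenicol, oxytetracycline and the macrolides tildipirosin and tulathromycin act by binding the bacterial ribosome, and phenicols and tetracyclines as classes are known to bind its mitochondrial relative as well. Ceftiofur blocks bacterial cell wall synthesis and enrofloxacin blocks bacterial DNA gyrase. The design therefore allows the 4 ribosome-binding drugs to be compared with the other 2 drugs. What was measured is the RNA of the mtDNA genes, so their translation was not observed.

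Libraries held 26.1 M to 74.1 M counts (M for mega), with a median of 43.6 M. The blood cell markers fitted the label of whole blood, with neutrophil, monocyte, T cell, B cell, NK, platelet and erythroid genes all measured, although CSF3R, TRAC, GNLY and GP1BB were not listed under these symbols. Hemoglobin genes took 0.00405% to 25.5% of a library, with a median of 0.900%. In 6 libraries several mtDNA genes were each far lower than in the 5 other steers of the same group and day. These were TILD replicate 5 on day 7, ENRO replicate 2 and OXYT replicate 6 on day 3, OXYT replicate 9 on day 14, CEFT replicate 6 on day 56 and NC replicate 1 on day 21. Levels are given as CPM, the counts of a gene per 10 to the power of 6 counts of its library, with library sizes scaled by the trimmed mean of M-values (TMM). COX1, for example, was at 4262 CPM in TILD replicate 5 on day 7 against 14791 to 20704 CPM in the other TILD steers that day. The totals of these 6 libraries lay between 26.9 M and 49.99 M counts, and results are given below without them where they changed.

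The 10 genes together took 0.758% to 5.98% of the counts of a library, with a median of 2.86%. Their mean share over the 42 steers was 2.31% ± 0.690 (SD) on day 0 and 3.31% ± 0.648 on day 21. Over all days the group means ran from 2.41% in ENRO and 2.64% in NC to 3.05% in CEFT and 3.47% in TILD. The ranges of all groups overlapped, since single NC libraries reached 4.26% and single TILD libraries fell to 0.860%. These shares hold the COX3 row without the KEH36_p09 row, between which counts switched from library to library, as described below. With all mtDNA entries counted, the means over all days were 3.22% in ENRO, 3.39% in NC, 3.82% in CEFT and 4.11% in TILD. Over the 42 steers that wider share was 2.97% on day 0 and 4.12% on day 21. CPM values depend on transcript length, which is not known for the build of these files, so levels are compared between samples and not between genes.

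Among the complex I genes, which code for proton-pumping membrane subunits, ND1 had a mean of 1519 CPM ± 434 (SD, n = 42) on day 0 and 2198 CPM ± 385 on day 21. ND2 was at 1182 CPM ± 310 on day 0 and 1691 CPM ± 317 on day 21. ND4 was at 348 CPM ± 126 on day 0 and 577 CPM ± 166 on day 21. Each of these genes was thus higher late than early by more than its SD on day 0. ND5 went from 1476 CPM ± 424 to 2322 CPM ± 492 between the same days. ND6, the only one of the 10 genes that lies on the other strand of mtDNA, was barely detected, with 1 to 57 counts per library and a median of 6 counts. Its mean was 0.118 CPM ± 0.0993 on day 0 and 0.240 CPM ± 0.185 on day 21. The libraries were made with a strand-marking kit, but the aligner and the counting tools were run with default parameters, with no strand option named, so reads of ND6 and of genes on the opposite strand cannot be told apart with certainty. At so few counts the values of ND6 carry large counting error.

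CYTB, the cytochrome b of complex III, had a mean of 2287 CPM ± 796 on day 0 and 3504 CPM ± 892 on day 21. COX1, the catalytic subunit of cytochrome c oxidase, was the gene with the most counts of the 10, from 116178 to 1193889 per library, and went from 10559 CPM ± 2389 to 15791 CPM ± 2250. ATP6, the proton channel subunit of the ATP synthase, went from 2617 CPM ± 713 to 3966 CPM ± 667. COX2, the subunit that accepts electrons from cytochrome c, did not share this course. Its mean was 824 CPM ± 313 on day 0, 736 CPM ± 309 on day 14 and 874 CPM ± 274 on day 21, so its days differed by less than the SD within a day.

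**Figure D1:**
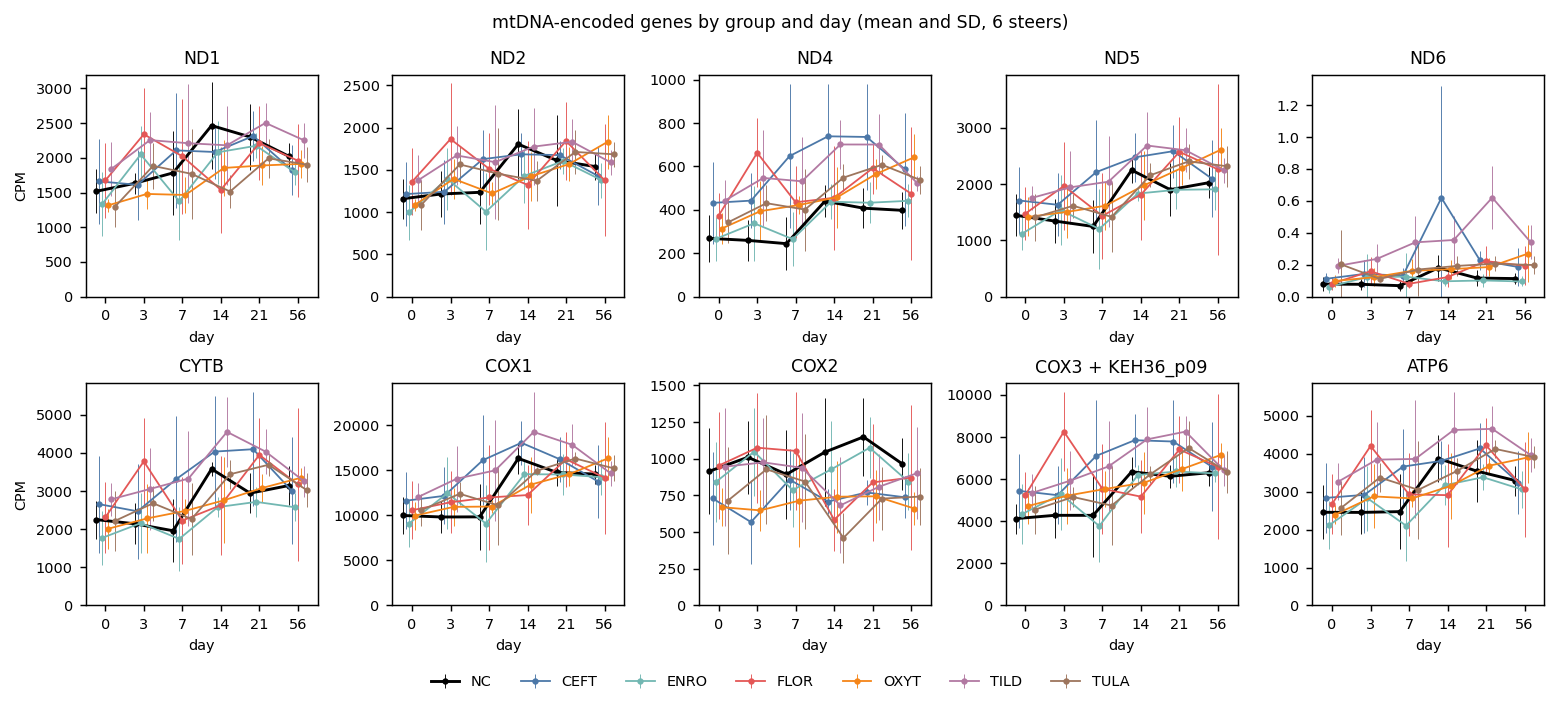
Mean level (CPM, vertical axis, from 0) of each mtDNA gene on each day (horizontal axis, days 0 to 56, evenly spaced) in the 7 groups; bars are the SD over 6 steers, and COX3 is drawn as the sum of the rows COX3 and KEH36_p09. On day 21 the group means of COX1 are above those of day 0 in all 7 groups, with means over all steers of 10559 and 15791 CPM, ND1 and ND2 in FLOR are no higher on day 14 than on day 0, and COX2 stays between 736 and 894 CPM in the mean over all steers.

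COX3, the third core subunit of cytochrome c oxidase, was split in the table between its own row and the row KEH36_p09, the RefSeq locus tag of ATP8. In 137 libraries the COX3 row held 58 to 671 counts while KEH36_p09 held 66564 to 599200. In the other 115 libraries the COX3 row held 116771 to 441104 counts while KEH36_p09 held 639 to 46485. No library fell between these ranges of the COX3 row. The sum of both rows had a median of 5897 CPM in the first kind of library and 5884 CPM in the second. Both kinds occurred within the same steer on different days in 38 of 42 steers.

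Libraries with a high COX3 row numbered 6 of 36 for ENRO, 12 for NC, 14 for FLOR, 15 for OXYT, 16 for CEFT and 26 each in TILD and TULA. By lane they numbered 25, 49 and 41 of 84. The COX3 row alone therefore moved between libraries from under 671 to over 116771 counts, while the median of its sum with KEH36_p09 was alike. Its values are given only for completeness, and the sum of COX3 and KEH36_p09 is used as the COX3 signal. That sum was chosen after the values had been seen. The ATP8 row and the ATP6 row, whose genes overlap on mtDNA, moved with the same switch. ATP8 had a median of 1585 counts where the COX3 row was low and 32791 where it was high, and ATP6 had a median of 2994 CPM against 3811 CPM. How much of any ATP6 difference between groups belongs to this switch was not tested. The sum of the rows ATP8, KEH36_p09, ATP6 and COX3 was less alike. Its median was 8924 CPM where the COX3 row was low and 10556 CPM where it was high. Whether the sum of COX3 and KEH36_p09 held reads of ATP8 or ATP6 where the COX3 row was low was not tested.

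**Figure D2:**
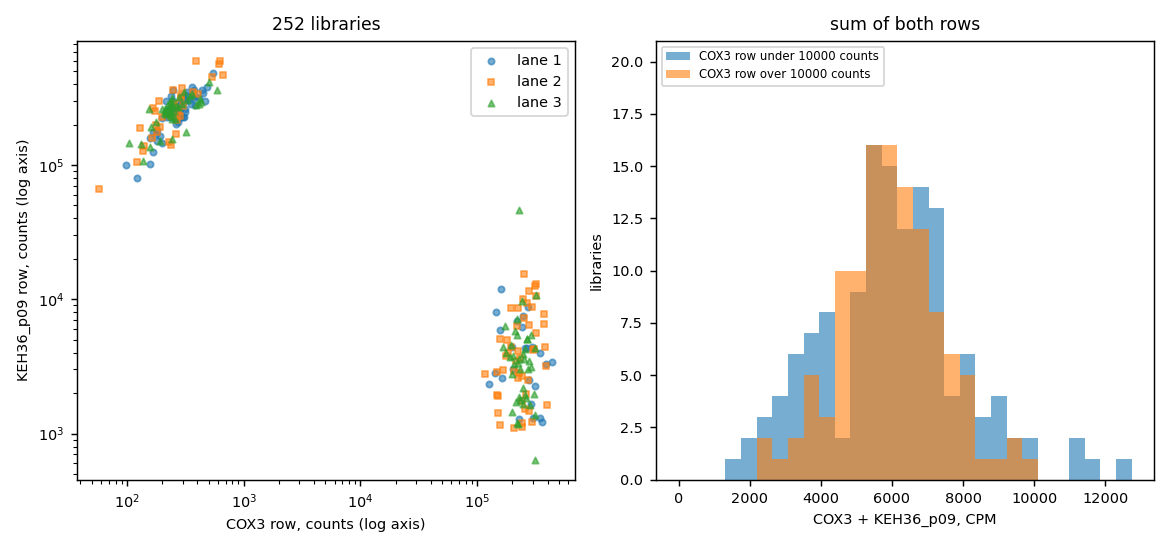
Left, counts of the KEH36_p09 row against counts of the COX3 row in all libraries, both on log axes, with symbols for the 3 lanes; right, the number of libraries by the summed level of both rows (CPM), for libraries with the COX3 row under or over 10000 counts. The 137 and 115 libraries form separate clouds in the left panel, and their sums overlap in the right panel with medians of 5897 and 5884 CPM.

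Over the 42 steers most of these genes rose from day 0. Changes were tested within steers by edgeR's quasi-likelihood test, with calls made at an adjusted p (FDR) under 0.1 over all 19056 genes. On day 3, 6 of the 10 genes rose, where 25.1% of all genes tested rose, 22.8% fell and 47.9% changed. On day 7, 3 rose (ND1, ND2 and ND4), against 29% of all genes higher, 24% lower and 53% changed. On day 14, 8 rose and COX2 fell, against 36.3% of all genes higher, 33.3% lower and 69.6% changed. On day 21, 9 rose, the COX3 row among them, against 35.9% higher, 34.8% lower and 70.7% changed. On day 56, 8 rose, against 35.9% higher, 34.2% lower and 70% changed. A large share of all genes changed too, and most of the 10 genes moved together, as given below. The counts are therefore not those of independent genes. The median log2 change of the 10 genes was 0.29 on day 3, 0.57 on day 14 and 0.63 on day 21, where the median over all genes tested was 0.02 on each of these days.

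In complex I, ND1 changed by a log2 of 0.32 (SE 0.07) on day 3, then by 0.23, 0.37, 0.55 and 0.39 on the later days in order, all past the FDR. ND2 followed it closely with log2 changes of 0.31, 0.20, 0.40, 0.54 and 0.40, also all past the FDR, although the day 7 call was lost with DESeq2 (adjusted p = 0.117). The rise of ND4 was larger on the late days, with log2 changes of 0.31, 0.20, 0.67, 0.76 and 0.58, and it was 1.70-fold on day 21. Its day 7 call was lost with library totals, no filter, limma voom and DESeq2 (adjusted p between 0.109 and 0.183). ND5 had log2 changes of 0.14 on day 3 and 0.04 on day 7, which missed the FDR, and rose by 0.58, 0.67 and 0.58 on days 14, 21 and 56. ND6 rose by a log2 of 0.89 (SE 0.15) on day 14, 0.91 on day 21 and 0.76 on day 56, while its values of 0.29 on day 3 and 0.31 on day 7 missed the FDR.

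CYTB rose by a log2 of 0.20 (SE 0.09) on day 3, had 0.07 on day 7, which missed the FDR, and rose by 0.57, 0.64 and 0.44 on days 14, 21 and 56. Its day 3 call, with an edgeR adjusted p of 0.0674, was lost without the replicate block, with library totals as the scaling, with limma voom and with DESeq2 (adjusted p between 0.111 and 0.158). COX1 rose by 0.17 (SE 0.07) on day 3 and by 0.57, 0.60 and 0.48 on days 14, 21 and 56, with 0.13 on day 7. On day 21 it was 1.51-fold higher, and CYTB, COX1 and ATP6 were each higher than on day 0 in 42 of 42 steers. ATP6 rose by 0.28 (SE 0.08) on day 3 and by 0.47, 0.62 and 0.43 on days 14, 21 and 56, with 0.15 on day 7. The sum of COX3 and KEH36_p09 rose by 0.19 (SE 0.07), 0.44, 0.57 and 0.44 on day 3, day 14, day 21 and day 56, and was higher on day 21 in 40 of 42 steers.

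COX2 stood apart from the other genes. Its log2 change was 0.09 on each of day 3, day 7 and day 21 and 0.00 on day 56, all short of the FDR, and on day 14 it fell by 0.19 on the log2 scale (SE 0.09, edgeR adjusted p = 0.0588). On day 21 it was higher than on day 0 in 23 steers and lower in 19. The day 14 call was lost without the replicate block, after lane adjustment and without the 6 low libraries (adjusted p between 0.105 and 0.111). The COX3 row on its own had log2 changes between 0.83 and 3.43 with SEs near 1.4, and was called on day 21 only (log2 3.43, edgeR adjusted p = 0.0218).

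Without the 6 low libraries the day 7 count was 6 of 10 genes in place of 3, since COX1 (log2 0.17, edgeR adjusted p = 0.0238), ATP6 (0.18, 0.0241) and ND6 (0.33, 0.0762) were then called too, while the share of all genes called was 52.7%, with 28.8% higher. ND5 was then called on day 3 (log2 0.20, edgeR adjusted p = 0.0341), where 47.9% of all genes were called. The low libraries were picked as the lowest of their group in several of these genes, and all came from days after day 0. Leaving them out thus raises the later days by selection, so the added calls are no support for the rise.

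The 6 NC steers, which received no drug, were also examined alone. None of the 10 genes was called on day 3, where 0.666% of all genes were called (0.199% higher), or on day 7, where 7.21% were called (3.56% higher), and none had an unadjusted p under 0.05 in edgeR on either day. On day 14, 8 of 10 rose, against 37% of all genes changed and 19.8% higher, with COX1 at a log2 of 0.73 (SE 0.18), ND4 at 0.80 and CYTB at 0.70. On day 21, 5 rose, against 31.7% changed and 16.6% higher, and on day 56, 6 rose, against 37.4% changed and 19.9% higher. COX2 had log2 values of 0.18 on day 14 and 0.38 on day 21 in these steers, short of the FDR. The late rise was thus measured in steers without a drug as well.

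RNA levels of blood cell markers moved over the same days, and cells were not counted. On day 14, 36.3% of all genes tested were higher and 33.3% lower. On day 14 all 9 measured neutrophil markers fell (median log2 change −0.52), as did 6 of 7 monocyte markers (−0.71), while 7 of 7 T cell markers rose (0.40), 5 of 7 B cell markers rose and 1 fell, and 8 of 8 tested erythroid markers rose (2.41). The remaining lists were less uniform, with 1 of 6 NK and cytotoxic markers higher and 3 lower, 3 of 7 platelet markers higher, and 3 of 6 eosinophil and basophil markers higher and 1 lower. The summed level of the neutrophil markers ranged over the 42 steers from 2123 to 6549 CPM on day 0 and from 1356 to 3803 CPM on day 21. That of the T cell markers ranged from 1040 to 2153 CPM on day 0 and from 1496 to 3321 CPM on day 21, and that of the erythroid markers from 39.4 to 39273 CPM and from 703 to 261772 CPM. In bulk blood, fewer cells of a type and less RNA per cell cannot be told apart. The part of cell composition in the rise of the mtDNA genes was not tested. Across all libraries, the mean of 7 mtDNA genes (ND1, ND2, ND4, ND5, CYTB, COX1 and ATP6) had a Spearman's rho of 0.43 with the T cell markers and −0.34 with the neutrophil markers. After subtraction of each group's mean on each day these were 0.16 and −0.19. The libraries share steers, days and lanes, so these values are a description.

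The respiratory chain also needs subunits encoded in the nucleus. Of 75 nuclear subunits of complexes I to V that were tested, 54 rose and 10 fell on day 14, with a median log2 change of 0.25, and 43 rose and 14 fell on day 21, with a median of 0.18. Of all genes tested, 36.3% were higher and 33.3% lower on day 14, and 35.9% higher and 34.8% lower on day 21. By complex on day 14, 25 of 37 subunits of complex I rose and 8 fell, 4 of 4 of complex II rose, 7 of 9 of complex III rose and 1 fell, 7 of 10 of complex IV rose and 1 fell, and 11 of 15 of complex V rose. NDUFB10 and NDUFA7 of complex I rose by a log2 of 0.51 each, UQCR10 of complex III by 0.49, COX4I1 of complex IV by 0.40 and ATP5MC2 of complex V by 0.38. SDHB of complex II, which has no mtDNA-encoded subunit, rose by 0.31. The mtDNA genes other than COX2 thus had changes of the same sign as most of the nuclear subunits on that day, and the difference in size was not tested.

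Genes that copy, transcribe and process mtDNA moved in both directions. On day 14 their counts are to be read beside 36.3% of all genes higher and 33.3% lower. Of 11 genes for mtDNA transcription and replication, 4 rose and 4 fell, near these shares. POLG, the mtDNA polymerase, rose by a log2 of 0.24, while TFAM, which packages mtDNA and starts its transcription, fell by 0.37 on the log2 scale and TFB2M, a partner of the mitochondrial RNA polymerase, fell by 0.33. Of 16 genes for mtRNA processing and stability, 7 rose and 4 fell, with HSD17B10, a subunit of mitochondrial RNase P, at 0.49, TBRG4 at 0.40 and SLIRP at 0.36. Of 12 mitochondrial translation factors, 5 rose and 2 fell, among them the elongation factor TUFM at 0.25 and the ribosome recycling factor MRRF at 0.32. Of 16 genes of the mitochondrial stress response, 8 rose and 6 fell, with TRIB3 at 0.42, PHGDH at 0.41 and the protease CLPP at 0.36. The rows of the 3 other mtDNA protein genes were all called higher on day 14, against 8 of 10 for the genes described here. ND3 rose by 0.45 and ND4L by 0.62. ATP8 had a log2 change of 1.01 (SE 0.51, edgeR adjusted p = 0.0751), but its row moved with the COX3 switch. Libraries with a high COX3 row numbered 13 of 42 on day 0 and 21 of 42 on day 14. The part of the switch in the ATP8 value was not tested. The 2 ribosomal RNA rows, KEH36_r01 and KEH36_r02, rose by 0.32 and 0.21 on day 14 and by 0.78 and 0.41 on day 21.

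The question of the drug classes was tested as a difference in change. For each gene, the mean change from day 0 in FLOR, OXYT, TILD and TULA was compared with the mean change in CEFT and ENRO. None of the 10 genes was called by edgeR on any of the 5 days or over the mean of these days. Of all genes tested, 0.021% were called on day 3, 0.00525% on day 56 and 0% on the other days and for the mean of days, or 0.00437% of the 6 comparisons together. Unadjusted p-values under 0.05 were found for 2 of the 60 tests of the 10 genes, both on day 14. Over all genes tested, 740 to 1318 had such a p in each comparison. limma voom and DESeq2 called none of the 10 either.

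Over the mean of the 5 days, the changes of COX1 in single steers overlapped across all groups. In the ribosome-binding groups, the lowest, median and highest mean log2 change of COX1 were 0.09, 0.22 and 0.73 for FLOR, 0.11, 0.37 and 0.81 for OXYT, 0.01, 0.40 and 0.70 for TILD and 0.22, 0.29 and 0.83 for TULA. In the comparison groups they were 0.16, 0.29 and 0.83 in CEFT and −0.29, 0.46 and 1.501 in ENRO. In NC they were 0.06, 0.25 and 0.80. COX1 thus rose in at least 5 of 6 steers of each group, with the widest spread in ENRO. For ND4 the median change was 0.47 for FLOR, 0.67 for OXYT, 0.45 for TILD and 0.41 for TULA, compared with 0.45 for CEFT, 0.53 for ENRO and 0.27 for NC.

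The intervals of the class difference give the sizes that these steers leave possible. For the mean of days, the log2 difference was −0.06 (95% interval −0.30 to 0.19) for COX1, 0.06 (−0.26 to 0.38) for CYTB and 0.03 (−0.24 to 0.31) for ATP6. In complex I it was −0.02 (−0.27 to 0.23) for ND1, −0.02 (−0.29 to 0.26) for ND2, 0.00 (−0.34 to 0.34) for ND4 and −0.01 (−0.32 to 0.30) for ND5. It was −0.11 (−0.44 to 0.22) for COX2 and 0.02 (−0.24 to 0.27) for the sum of COX3 and KEH36_p09. For these 9 signals no interval reached below −0.44 or above 0.38. The intervals were wider for ND6, at −0.25 (−0.84 to 0.33), and the COX3 row alone was uninformative at −1.35 (−6.86 to 4.17).

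**Figure D3:**
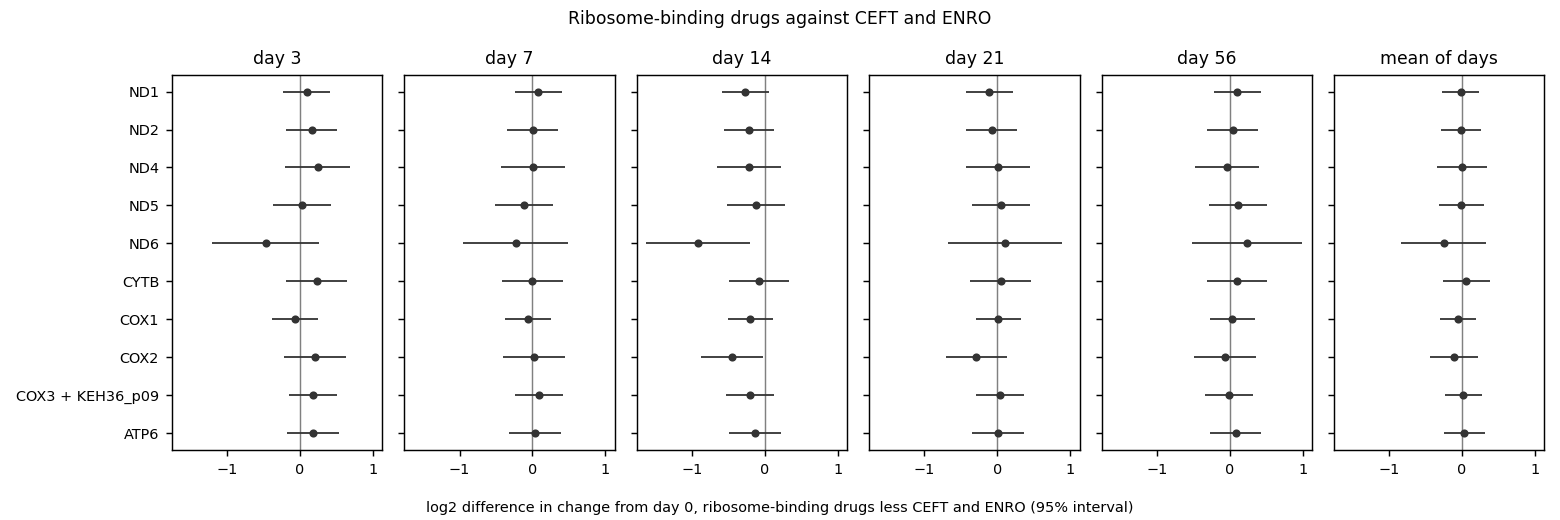
Log2 difference in the change from day 0 between the ribosome-binding drugs (FLOR, OXYT, TILD and TULA) and CEFT with ENRO, for each mtDNA gene (vertical axis) on each day and over the mean of days; points are estimates and lines are 95% intervals from edgeR. The intervals cross 0 except those of ND6 and COX2 on day 14, neither of which passed the FDR.

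The smallest p-values fell on day 14, when ND6 had a log2 difference of −0.91 (edgeR unadjusted p = 0.0118, adjusted p = 0.664) and COX2 of −0.45 (unadjusted p = 0.0382, adjusted p = 0.768). For ND6 the CEFT mean on that day, 0.619 CPM, was raised by a single library at 1.88 CPM or 57 counts, while the median of the 6 CEFT steers was 0.224 CPM. For COX2 the medians on day 14 were 610 CPM for FLOR, 819 for OXYT, 558 for TILD and 391 for TULA, against 691 for CEFT, 962 for ENRO and 1167 for NC. The ranges of COX2 overlapped between the classes, from 209 to 1250 CPM in the ribosome-binding groups and from 524 to 1410 CPM in CEFT and ENRO.

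Lanes and drug classes were unequally mixed, so the class difference was recomputed within lanes. On lane 1 only 2 FLOR steers and 6 ENRO steers could be compared, and on lane 3 6 OXYT and 2 TILD steers with 6 CEFT steers. Lane 2 held no CEFT or ENRO steer. None of the 10 genes was called on either lane. The log2 difference of COX1 over the mean of days was −0.28 (SE 0.29) on lane 1 and 0.04 (SE 0.16) on lane 3, and that of ND4 was −0.23 (SE 0.43) and −0.02 (SE 0.21). Leaving out each drug in turn, adding NC to CEFT and ENRO, and leaving out the 6 low libraries called none of the 10 genes either.

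Each drug was also compared with NC in its change from day 0, with the same 6 NC steers in every comparison. None of the 10 genes was called for any of the 6 drugs over the mean of days, where 0.014% of all tests were called (0.084% in ENRO and 0% in each other drug), or in any of the 30 comparisons of a drug on a day, where 0.749% of all tests were called. In the 300 tests of the 10 genes by drug and day, 9 had an unadjusted p under 0.05 in edgeR, and the smallest was 0.00524 for ND1 in FLOR on day 14. DESeq2 called 2 of the 300, both for the COX3 row alone, and limma voom called none. Without the COX3 row, log2 differences over the mean of days ran from −0.58 for ND6 in TULA to 0.47 for ND6 in CEFT. COX1 lay within 0.11 of NC in all 6 drugs, from −0.03 for FLOR to 0.11 for ENRO, each with an SE of 0.20.

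Levels were then compared between each drug and NC within a day, 6 steers against 6. The study made these comparisons on lane-adjusted counts by a likelihood ratio test, and kept the genes that a mixed model also found. Of the fits below, the likelihood ratio test after lane adjustment is the nearest to it. Of the 360 tests of the 10 genes, 3 were called by edgeR's quasi-likelihood test, where 0.51% of all tests were called. Of the 360 tests, 71 had an unadjusted p under 0.05 by this test. On day 0, before any drug was given, none of the 60 tests was called and 3 had an unadjusted p under 0.05. The 3 calls were ND4 and ATP6 in FLOR on day 3 and ND6 in TILD on day 21. ND4 also had the smallest unadjusted p of the 10 genes, without a call, in other drugs. By the same test it was 0.00238 in CEFT and 0.000308 in TILD on day 14, 0.00218 in TULA on day 21 and 0.000656 in OXYT on day 56. The number was sensitive to the method, with 19 calls by edgeR's likelihood ratio test (0.91% of all tests called), 2 by that test after lane adjustment (0.197%), 32 by DESeq2 (2.99%) and 1 without a filter on low counts (0.206%).

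In FLOR on day 3, ND4 was at 456, 656 and 857 CPM (lowest, median and highest of 6 steers), against 181, 228 and 426 CPM in NC. The groups did not overlap on day 3. On day 0 they did, with 271, 334 and 531 CPM in FLOR and 152, 256 and 415 CPM in NC. The log2 difference on day 3 was 1.35 (SE 0.23, edgeR adjusted p = 0.0273), and 2.1% of all genes were called in this comparison. On day 0 it was 0.48 with an unadjusted p of 0.0949. Leaving out each of the 12 steers in turn kept the call of ND4. In this comparison 0.572% of all genes were higher in FLOR. The separation was that of the ND4 row alone. The sum of the rows ND4L and ND4 was at 2132, 3231 and 5048 CPM in FLOR on day 3. In NC it was at 1356, 1772 and 2687 CPM, with overlap.

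ATP6 was at 2901, 4188 and 5540 CPM in FLOR on day 3 and at 1697, 2588 and 3172 CPM in NC, with overlap. Its log2 difference was 0.78 (SE 0.19, edgeR adjusted p = 0.0892), and the call was lost when any of 10 of the 12 steers was left out, all except FLOR replicate 8 and NC replicate 13 (adjusted p between 0.101 and 0.174). CYTB was at 2736, 3584 and 5826 CPM in FLOR and at 1468, 2156 and 2773 CPM in NC, a log2 difference of 0.82 that missed the FDR (edgeR adjusted p = 0.108). The sum of COX3 and KEH36_p09 was at 6542, 7699 and 11808 CPM in FLOR and at 3496, 3694 and 5705 CPM in NC. These groups did not overlap, and with the rows summed the log2 difference was 0.95 (edgeR adjusted p = 0.0467), where 2.11% of all features were called.

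The other genes were not called in FLOR on day 3. ND1 was at 1840, 2161 and 3558 CPM against 1462, 1637 and 1810 CPM in NC, without overlap, and its log2 difference of 0.52 missed the FDR. COX1 was at 8515, 10252 and 17821 CPM against 8189, 9360 and 12521 CPM, with a log2 difference of 0.22, and COX2 was at 601, 1034 and 1580 CPM against 636, 1031 and 1286 CPM, with a log2 difference of 0.09. ND2 (log2 0.62), ND5 (0.55) and ND6 (1.03) also missed the FDR.

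**Figure D4:**
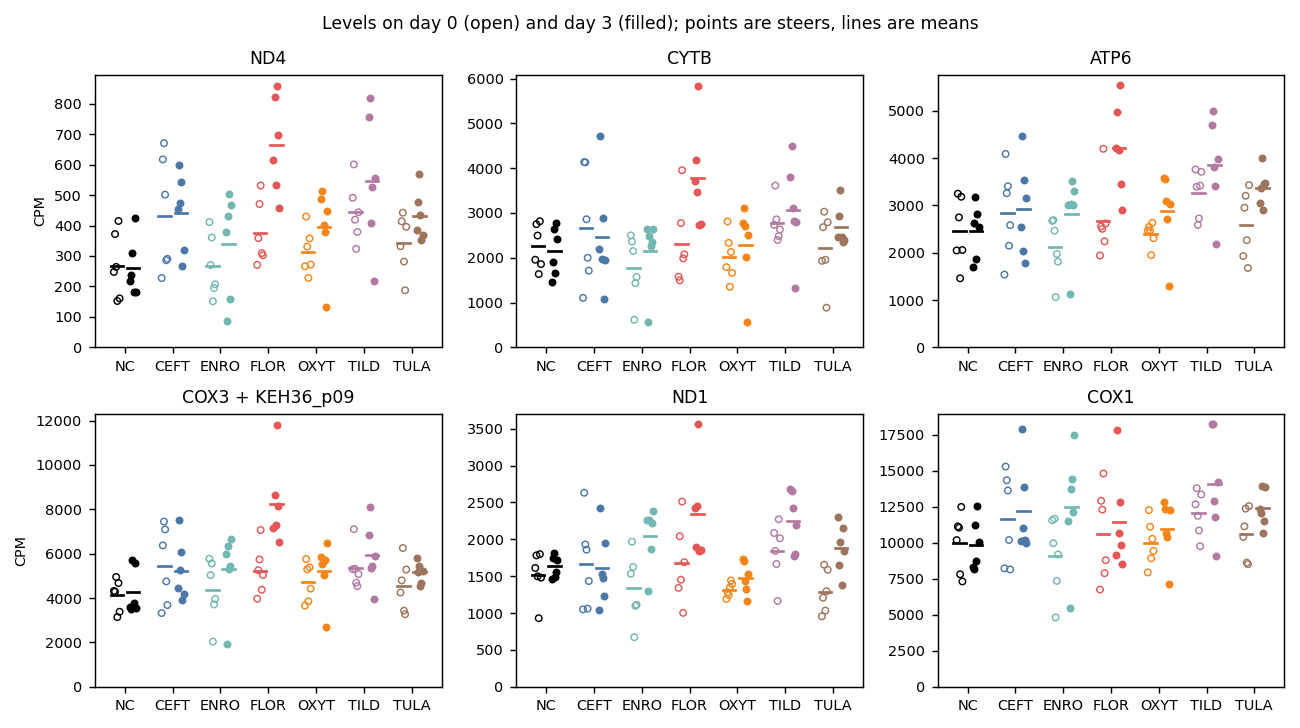
Level (CPM, vertical axis, from 0) of 5 mtDNA genes and of the sum of COX3 and KEH36_p09 in single steers on day 0 (open points, before dosing) and day 3 (filled points) in the 7 groups; lines are group means. For ND4 the 6 FLOR steers on day 3 lie between 456 and 857 CPM and the 6 NC steers between 181 and 426 CPM, whereas for COX1 the ranges of FLOR and NC overlap.

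Within steers the FLOR rise from day 0 to day 3 was seen in 6 of 6 animals for ND4, ATP6, CYTB and the COX3 sum. For ND4 the mean log2 change was 0.69 in the 2 FLOR steers on lane 1 and 0.91 in the 4 on lane 2, against −0.02 in the 6 NC steers, all on lane 1. On day 3 the lane 1 FLOR steers were at 532 and 822 CPM of ND4. The test of the change itself, which uses the day 0 samples of both groups, gave log2 differences between FLOR and NC of 0.87 for ND4 (unadjusted p = 0.0179), 0.83 for CYTB (0.0161) and 0.67 for ATP6 (0.0247). None passed the FDR in edgeR (adjusted p of 0.653, 0.644 and 0.671), so the higher ND4 level on day 3 was not shown to be a change from day 0 particular to FLOR. On the later days ND4 was not called in FLOR. Its medians in FLOR and NC were 413 and 225 CPM on day 7 (unadjusted p = 0.0290 in edgeR), 507 and 422 CPM on day 14, 599 and 424 CPM on day 21 (unadjusted p = 0.0106 in edgeR) and 351 and 415 CPM on day 56.

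Cell markers in the same 12 libraries overlapped between the groups. The summed neutrophil markers (9 of 10 measured) were at 2103 to 3135 CPM in NC and 2432 to 3246 CPM in FLOR, the monocyte markers at 1681 to 2777 and 1862 to 3944 CPM, the T cell markers at 1422 to 2255 and 1247 to 2158 CPM, and the B cell markers at 1195 to 1995 and 1727 to 2325 CPM. Platelet markers were at 548 to 1520 CPM in NC and 689 to 1370 CPM in FLOR, NK markers at 272 to 932 and 235 to 670 CPM, and erythroid markers at 2853 to 61304 and 1496 to 11261 CPM. Their part in the FLOR levels was not tested.

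ND6 in TILD on day 21 was at 0.366, 0.641 and 0.834 CPM, or 13 to 27 counts per library, against 0.0629, 0.116 and 0.168 CPM in NC, or 3 to 7 counts. The groups did not overlap, and the log2 difference was 2.38 (SE 0.39, edgeR adjusted p = 0.0850), where 0.0787% of all genes were called and 0.0525% were higher. The call was lost in 10 of the 12 fits without 1 steer, all except those without NC replicate 1 or NC replicate 5 (adjusted p between 0.103 and 0.193), without a filter on low counts, and after lane adjustment with the likelihood ratio test (log2 1.51, edgeR adjusted p = 0.112). Without NC replicate 1, whose day 21 library was low in several mtDNA genes, 4 of the 10 genes were called in this comparison, and so were 17.4% of all genes. TILD steers were sequenced on lanes 2 and 3 and NC steers on lane 1, so drug and lane cannot be told apart. ND6 was already higher in TILD on day 0, before dosing, with 4 to 10 counts per library against 2 to 6 in NC (log2 1.28, edgeR unadjusted p = 0.0131, adjusted p = 0.671). Erythroid markers on day 21 were at 10032 to 261772 CPM in NC and 2056 to 47885 CPM in TILD, and neutrophil markers at 1356 to 3501 and 2191 to 3803 CPM, and their part was not tested.

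Differences between steers took 28.3% of the variance of log2 CPM of COX1 and days 27.3%. Each steer had 1 treatment and 1 lane, so the share of steers holds those of treatments (6.98% for COX1) and lanes (2.51%). ND4 and ND6 were the genes with the largest lane shares, at 13.9% and 15.97%, and with treatment shares of 19.8% and 31.4%, which hold the lane differences too. For the sum of the rows ND4L and ND4 the lane share was 2.76% and the treatment share 5.21%. On day 0, before dosing, the group means of ND4 already ran from 266 CPM in ENRO and 269 CPM in NC, both on lane 1, to 432 CPM in CEFT and 443 CPM in TILD. For COX2, steers took 40.03% and days 3.92%.

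The genes moved together from library to library. Over the libraries of all 42 steers, the 21 pairs among ND1, ND2, ND4, ND5, CYTB, COX1 and ATP6 had a Spearman's rho of 0.58 to 0.90 with a median of 0.84, and of 0.58 to 0.89 with a median of 0.80 after each group's mean on each day was subtracted. The sum of COX3 and KEH36_p09 had a rho of 0.66 to 0.86 with the 7 genes, and ND6, despite its few counts, one of 0.46 to 0.75. COX2 was the exception, with a rho between −0.02 (ND4) and 0.62 (ND1) and a median of 0.15, or 0.36 after centring. ND1 and ND2 were the genes of the 7 closest to it, with 0.62 and 0.50, or 0.76 and 0.70 after centring, and with the ribosomal RNA rows it had 0.56 (KEH36_r01) and 0.47 (KEH36_r02). All libraries share steers, days and lanes, so no test was made of these values.

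**Figure D5:**
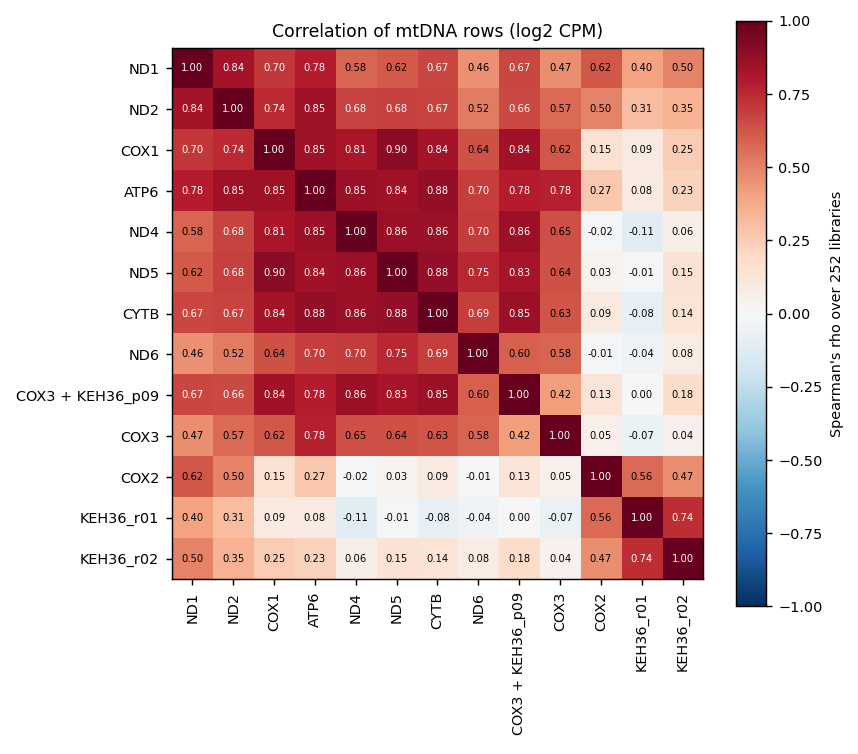
Spearman's rho between mtDNA rows over all libraries (log2 CPM), with blue for negative and red for positive values. ND1, ND2, COX1, ATP6, ND4, ND5 and CYTB form a block with rho of 0.58 and above, while COX2 has −0.02 with ND4 and 0.56 with the ribosomal RNA row KEH36_r01.

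Among all other genes tested, those most like the mean log2 CPM of the 10 genes over all libraries were mainly mtDNA rows. ATP8 had a rho of 0.82, ND4L 0.67, the transfer RNA rows KEH36_t13 and KEH36_t20 0.66 and 0.65, and ND3 0.61. The next were LOC104970908 (0.53), ATP5MC2, a nuclear subunit of the ATP synthase (0.52), QARS, a glutaminyl-tRNA synthetase (0.52), DCTN2 (0.51) and ERGIC3 (0.51). At the other end, KEH36_p09 had a rho of −0.54 and USP25 one of −0.51. The mean of 10 genes holds the COX3 row, which switched with KEH36_p09. Against the mean of the 7 genes that moved together, chosen after the values had been seen, ND4L had a rho of 0.88, ND3 0.81 and KEH36_p09 0.00, ERGIC3 had 0.69 and ATP5MC2 0.68, and USP25 was at −0.69.

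The nuclear genes of mitochondria showed no difference between the drug classes over the mean of days that passed the FDR. None of the 75 nuclear respiratory chain subunits, 11 mtDNA transcription and replication genes, 16 mtRNA processing genes, 12 translation factors or 16 stress response genes was called by edgeR, nor was any other gene. The genes with the smallest p-values in their lists had small differences except NDUFB6 of complex I at a log2 of 0.73. They included PSAT1 of the stress response at −0.15, the elongation factor GFM1 at −0.11, LRPPRC, which stabilizes mitochondrial mRNAs, at −0.09 and POLG2, the accessory subunit of the mtDNA polymerase, at 0.22, all with an edgeR adjusted p of 1.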

How the data were processed

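Whole blood was drawn into RNA-stabilizing tubes, and polyadenylated RNA was sequenced in 1 library per steer and day. The deposited values are counts per gene, which the authors made by trimming reads (Trimmomatic 0.39), aligning them to the bovine assembly ARS-UCD1.3 with HISAT2 and estimating whole-number counts with StringTie 2.2.0. The submitters' notes also name FastQC 0.11.9 and edgeR 3.36.0. The study's methods give default parameters for the aligner and counting tools apart from the read length, with no strand option named. The annotation release is not given in the sources used here, and reads of overlapping mtDNA genes cannot be assigned with certainty. The table carries no lane adjustment.

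Genes over 0.2 CPM in at least 12 libraries were tested (19056 of 33282). The main test was edgeR 4.0.16 (quasi-likelihood, TMM) in R 4.3.3, with the steer as a block and treatment by day (77 coefficients, 175 residual degrees of freedom), and with 6 against 6 steers for levels within a day. Benjamini-Hochberg adjustment ran over all genes tested at an FDR of 0.1. Log2 CPM for correlations, variance shares and single steers used a small prior count, below 2. Intervals are 95%. Alternatives used limma 3.58.1, DESeq2 1.42.0 and sva 3.50.0 (ComBat_seq by lane). Scripts were tested on simulated data. Summaries used Python 3.11.15, pandas 2.3.3 and scipy 1.17.1.

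Groups came from the labels. The libraries of a steer deviated together, with a median correlation of 0.300 against −0.0731 between steers of a group, and in 42 of 42 steers the mean was above 0.1. Replicate numbers name different steers in each group. The p-values of levels within a day measure the spread between steers of 1 pen per treatment. Those of changes from day 0 rest on the spread left between libraries once each steer's own level is removed. In that fit the libraries of a steer are otherwise taken as independent, and each treatment is again 1 pen. Depth was 26.1 M to 74.1 M counts, so counting error was small except for ND6.

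The genes, lists and alternatives were chosen with earlier results of these data known. Genes of the other lists were named by the largest changes on day 14 and the smallest p-values in the class comparison, and the genes most like the mtDNA genes by Spearman's rho over all libraries. Sequences and gene lengths were not used here. A gene that this rule names is not reported here.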

Additional observations from a re-analysis of the deposited data

Results flagged for a closer look

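In each group of 6 steers on each day, the highest and the lowest library were compared with the nearest other library for 9 of the genes and for the sum of COX3 and KEH36_p09. In 51 of 420 sets (12.1%) the gap, as a share of the whole range, passed Dixon's 95% critical value for 6 values, where chance gives about 5%. The 6 low libraries account for many of these, and each was the lowest of its set. No cause was tested.

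TILD replicate 5 on day 7 had ND1 at 683 CPM (nearest other steer 2003), ND2 at 349 (1393), ND4 at 142 (511), ND5 at 482 (2186), CYTB at 964 (3017), COX1 at 4262 (14791), ATP6 at 1133 (3437) and the COX3 sum at 2444 (6155). ENRO replicate 2 on day 3 had ND5 at 498 CPM (nearest 1347), CYTB at 579 (2256), COX1 at 5487 (11531), ATP6 at 1121 (2998) and the COX3 sum at 1936 (5325). OXYT replicate 6 on day 3 had ND4 at 133 CPM (nearest 380.0), CYTB at 579 (2028), COX1 at 7128 (10377), ATP6 at 1292 (2713) and the COX3 sum at 2681 (5039).

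OXYT replicate 9 on day 14 had ND1 at 1098 CPM (nearest 1843), ND2 at 872 (1380), ND6 at 0.0672 (0.161), CYTB at 980 (2500), COX2 at 288 (671) and ATP6 at 1512 (3054). CEFT replicate 6 on day 56 had ND1 at 1166 CPM (nearest 1682), ND5 at 868 (1975), COX1 at 6584 (13530) and ATP6 at 1672 (3097). NC replicate 1 on day 21 had ND5 at 993 CPM (nearest 1860), CYTB at 1965 (2904) and COX1 at 11925 (14619).

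Other low values were NC replicate 15 on day 0 with ND1 at 930 CPM (nearest 1480) and ND2 at 725 (1139), CEFT replicate 10 with COX1 at 7861 CPM on day 7 (15102) and 13222 on day 14 (18279), and TULA replicate 8 on day 14 with ND4 at 429 (542). CYTB was low in NC replicate 7 on day 14 at 3242 CPM (3593) and in TULA replicate 7 on day 0 at 888 (1932). COX2 was low in FLOR replicate 10 on day 14 at 209 CPM (515), and ATP6 was low in NC replicate 1 on day 56 at 2569 (3273) and in OXYT replicate 2 on day 7 at 2401 (2822). ND6 was low in ENRO replicate 8 on day 56 at 0.0387 CPM (0.092), FLOR replicate 7 on day 0 at 0.0189 (0.0627), FLOR replicate 6 on day 14 at 0.0205 (0.0929) and TILD replicate 7 on day 3 at 0.0576 (0.238), all at few counts.

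High values were ND6 in TULA replicate 6 on day 3 at 0.146 CPM (nearest 0.112), CYTB in ENRO replicate 10 on day 56 at 3316 (2543) and in TULA replicate 8 on day 56 at 3883 (2999), COX1 in NC replicate 1 on day 14 at 19733 (16109), COX2 in FLOR replicate 6 on day 21 at 1643 (805) and the COX3 sum in TILD replicate 2 on day 0 at 7104 (5320).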

How the results depend on the processing

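The class comparison called 0 of the 10 genes on each day under 13 alternatives and for the mean of days under 19, as did each drug's mean of days under 10. Over the 30 drug and day comparisons, which were run only with edgeR, limma voom and DESeq2, DESeq2 called 2. From day 0, the count on day 3 was 0 in NC steers only, with 0.666% of all genes called. On day 7 it was 5 after lane adjustment (52.7% of all genes called), 1 with DESeq2 (48.2%) and 0 in NC steers only (7.21%). It was 6 without the low libraries (52.7%), an alternative chosen after seeing the data, which drops low values of these genes by selection. On day 21 it was 5 in NC steers only (31.7%). In the 36 tests within a day the count of 3 went with 0.51% of all tests called. It became 19 with the likelihood ratio test (0.91%), 32 with DESeq2 (2.99%) and 1 with no filter (0.206%). For FLOR on day 3 the count of 2 went with 2.1% of all genes called. It was 1 after lane adjustment with the likelihood ratio test (0.824%), 5 with DESeq2 (9.12%) and 1 with no filter (0.832%). With each steer left out it was 1 to 2, with 0.467% to 2.18% of all genes called. For TILD on day 21 the count of 1 was 2 with the likelihood ratio test, 0 after lane adjustment, 3 with DESeq2 and 0 with no filter, and 0 to 4 with each steer left out. ND4 on day 7 lost its call with library totals, no filter, limma voom and DESeq2, and ND2 on day 7 with DESeq2. The cause was not tested.

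Without the replicate block (the steer), CYTB on day 3 (edgeR adjusted p = 0.158) and COX2 on day 14 (0.109) lost their calls, COX1 on day 7 gained one (0.0951), and COX2 on day 56 turned to −0.0087, while the class comparison called 0 genes in each fit. Signs of class differences near 0 also turned over the mean of days. ND1 was 0.031 within lane 3, 0.074 without ENRO and 0.012 without FLOR. ND2 was 0.0013 with NC added to CEFT and ENRO, 0.022 without ENRO, 0.036 without FLOR and 0.0087 without TILD. ND4 was −0.012 with library totals, −0.025 with voom, −0.024 with 1 value per steer, −0.015 without the low libraries, −0.23 and −0.018 within lanes 1 and 3, −0.027 without ENRO, −0.038 without OXYT and −0.0095 without TULA. ND5 was 0.051 with NC added, 0.086 within lane 3, 0.046 without ENRO and 0.0061 without TILD. Within lane 3, ND6 was 0.020 and COX1 0.038. ATP6 was −0.0098 with voom and −0.0099 with 1 value per steer.

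In NC steers only, day 3 changes were −0.049 for ND4, −0.12 for ND5, −0.092 for CYTB, −0.025 for COX1 and −0.0047 for ATP6, and day 7 changes −0.16 for ND4, −0.23 for ND5, −0.25 for ND6, −0.24 for CYTB, −0.047 for COX1 and −0.0091 for ATP6. COX2 was 0.18 on day 14 in NC steers only, −0.014 on day 21 with library totals, and on day 56 −0.0057 with DESeq2 size factors, −0.035 with library totals, −0.0062 with scaling that left out the mtDNA genes and hemoglobin and −0.0026 without the low libraries. The rho of KEH36_p09 turned from −0.54 to 0.000295 with the mean of 7 genes. Of the single gene values under an alternative, 618 kept direction and call, 45 lost the call, 7 gained one and 42 turned sign. With 6 steers a group, 1 pen a treatment and lanes tied to drugs, small drug effects on these RNAs could not be resolved, and counts of ND6 were too few for firm values.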
